A study of Arabidopsis thaliana with 19 samples.

Results

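The genes described here are the MYB transcription factor genes of Arabidopsis thaliana in sperm chromatin. They were chosen by name, as nuclear protein-coding genes whose symbol is MYB followed by digits only, which 115 genes met. MYB23, MYB97, MYB101 and MYB120 and the loci of DUO1, WER, GL1 and AS1 were left out, and 109 genes remained of 27444 nuclear protein-coding genes. No measured value entered the choice.

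The study mapped histone H3 marks by ChIP-seq in sperm nuclei of the ecotype Col-0, sorted by the fluorescence of HTR10-Clover, a tagged H3.10 driven by the HTR10 promoter. All 19 samples shared this line, whose genotype the labels give as wild type, and chromatin was cut to mononucleosomes with micrococcal nuclease. H3K4me3, H3K27ac and the sperm histone H3.10 had 3 immunoprecipitations each, H3K27me1 had 2, H3K27me3 had 2, and 2 input sets had 3 samples each. H3K27me1 and H3K27me3 were each taken from 2 of the 3 chromatin preparations that gave H3K4me3 and H3K27ac, so the marks share material, and H3.10 was not analysed here. With only sperm and no other tissue or genotype, the comparisons are between marks and between genes.

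MYB factors bind DNA through imperfect repeats of a helix-turn-helix fold, and in plants most carry a pair of such repeats (R2R3-MYB). Numbered subgroups of R2R3-MYB proteins share short motifs outside the DNA-binding domain, and members of a subgroup often act in related processes, such as flavonoid, glucosinolate, lignin or cuticle synthesis, cell identity, stamen development and stress responses. H3K4me3 and H3K27ac mark transcribed genes, H3K27me3 is laid down by Polycomb repressive complex 2 on silent developmental genes, and H3K27me1 is known from heterochromatin.

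For each mark the authors deposited a narrow and a broad peak list, 8 lists in all, each pooled over the replicates of its mark. No value here has a replicate error, the depth of the samples is unknown, and no test was made. A gene counted as marked if peaks of the list covered 150 bp or more of its span. The narrow lists were used for H3K4me3 and H3K27ac and the broad lists for H3K27me1 and H3K27me3. The fold of a gene is the highest fold over control that the authors' narrow list gives to a peak in it. These lists show chromatin and no expression. The 3 genes HTR10, DUO1 and HAP2, known from sperm, each had H3K4me3 and H3K27ac, as did 14691 of all 27444 protein-coding genes. Their H3K4me3 folds were 4.23, 5.04 and 5.07, against a median of 4.09 over all marked genes. Their H3K27ac folds were 1.67, 1.98 and 1.91, against 1.80. The sorted line carries HTR10-Clover, so peaks at HTR10 cannot be told apart from reads of the transgene.

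Of the 109 MYB genes, 55 (50.5%) had H3K4me3, against 75.2% of all protein-coding genes, and 52 (47.7%) had H3K27ac, against 55.9%. H3K27me3 lay on 17 (15.6%) against 4.03% of all genes, and H3K27me1 on 15 (13.8%) against 8.79%. The family thus stood below the share of all genes for the 2 active marks and above it for the 2 other H3K27 marks. The other list gave the same order for H3K4me3, H3K27me1 and H3K27me3. Broad H3K4me3 marked 40 MYB genes (36.7%, all genes 60.9%), narrow H3K27me1 49 (45%, all genes 26.9%), and narrow H3K27me3 7 (6.42%, all genes 1.48%). H3K27me1 in either list marked 52 (47.7%, all genes 29.5%). The broad H3K27ac list marked 0.557% of all genes and 1 MYB gene, MYB57, a factor of the jasmonate response of the stamen. MYB genes were shorter than genes at large, with a median span of 1758 bp against 2078 bp. Among genes of 1000 to 2500 bp, which kept 99 MYB genes, H3K4me3 lay on 51, against 76.9% of all genes of that length, and H3K27me3 on 15, against 4.95%. H3K27ac lay on 48 of the 99, against 55.9%. Broad H3K27me1 lay on 12 of the 99, against 9.39%, a smaller gap than over genes of every length.

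**Figure D1:**
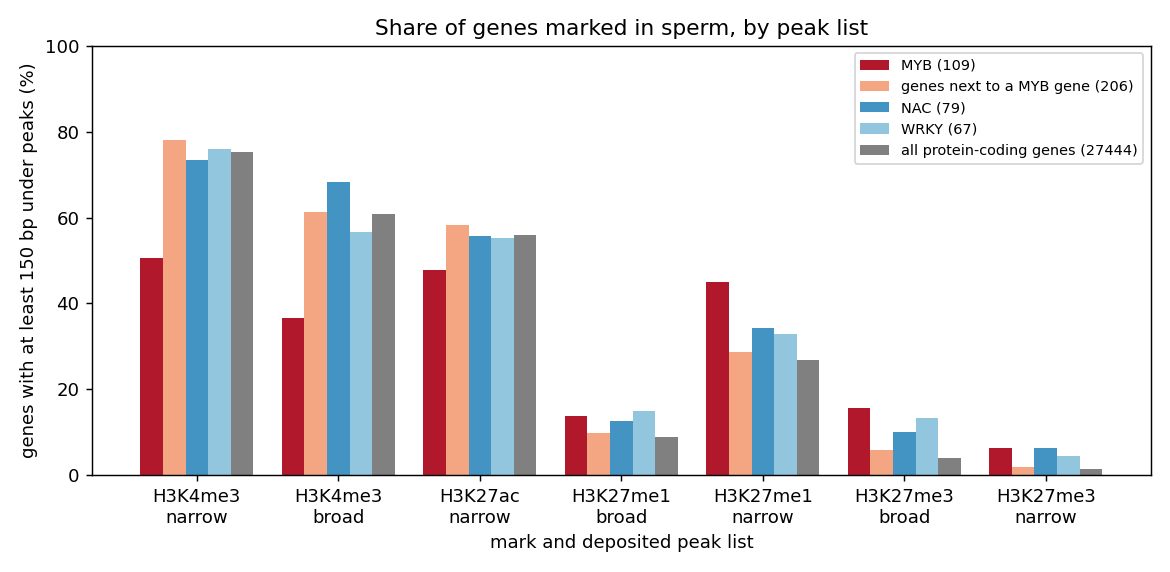
Share of genes (%, vertical axis) with at least 150 bp under peaks, for the 109 MYB genes, the 206 genes next to them, NAC genes, WRKY genes and all 27444 protein-coding genes, by mark and list; the broad H3K27ac list is left out. MYB genes stand at 50.5% for H3K4me3 against 75.2% of all genes, and at 15.6% against 4.03% for H3K27me3.

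Each MYB gene was then given its combination of the 4 marks. H3K4me3 with H3K27ac and nothing else, the state of 48.1% of all genes, was found on 27 MYB genes (24.8%). A further 14 had H3K4me3 alone (12.8%, all genes 18.5%), 14 had H3K27ac alone (12.8%, all genes 1.95%), 9 had H3K27me1 alone (8.26%, all genes 2.56%) and 8 had H3K27me3 alone (7.34%, all genes 0.634%). H3K27me3 joined both active marks on 6 genes (5.5%, all genes 1.97%), H3K4me3 on 2 (1.83%, all genes 0.86%) and H3K27ac on 1 (0.917%, all genes 0.109%). H3K27me1 joined both active marks on 4 genes (3.67%, all genes 3.32%) and H3K4me3 on 2 (1.83%, all genes 2.16%). Of the 15 MYB genes with H3K27me1 in these lists none had H3K27me3, against 5.18% of all genes with H3K27me1. Narrow H3K27me1 peaks were on 8 of the 17 MYB genes with H3K27me3, and on 45% of all MYB genes. The share over all genes with H3K27me3 was not computed for this pair of lists. The remaining 22 MYB genes had none of the 4 marks (20.2%, all genes 19.1%).

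**Figure D2:**
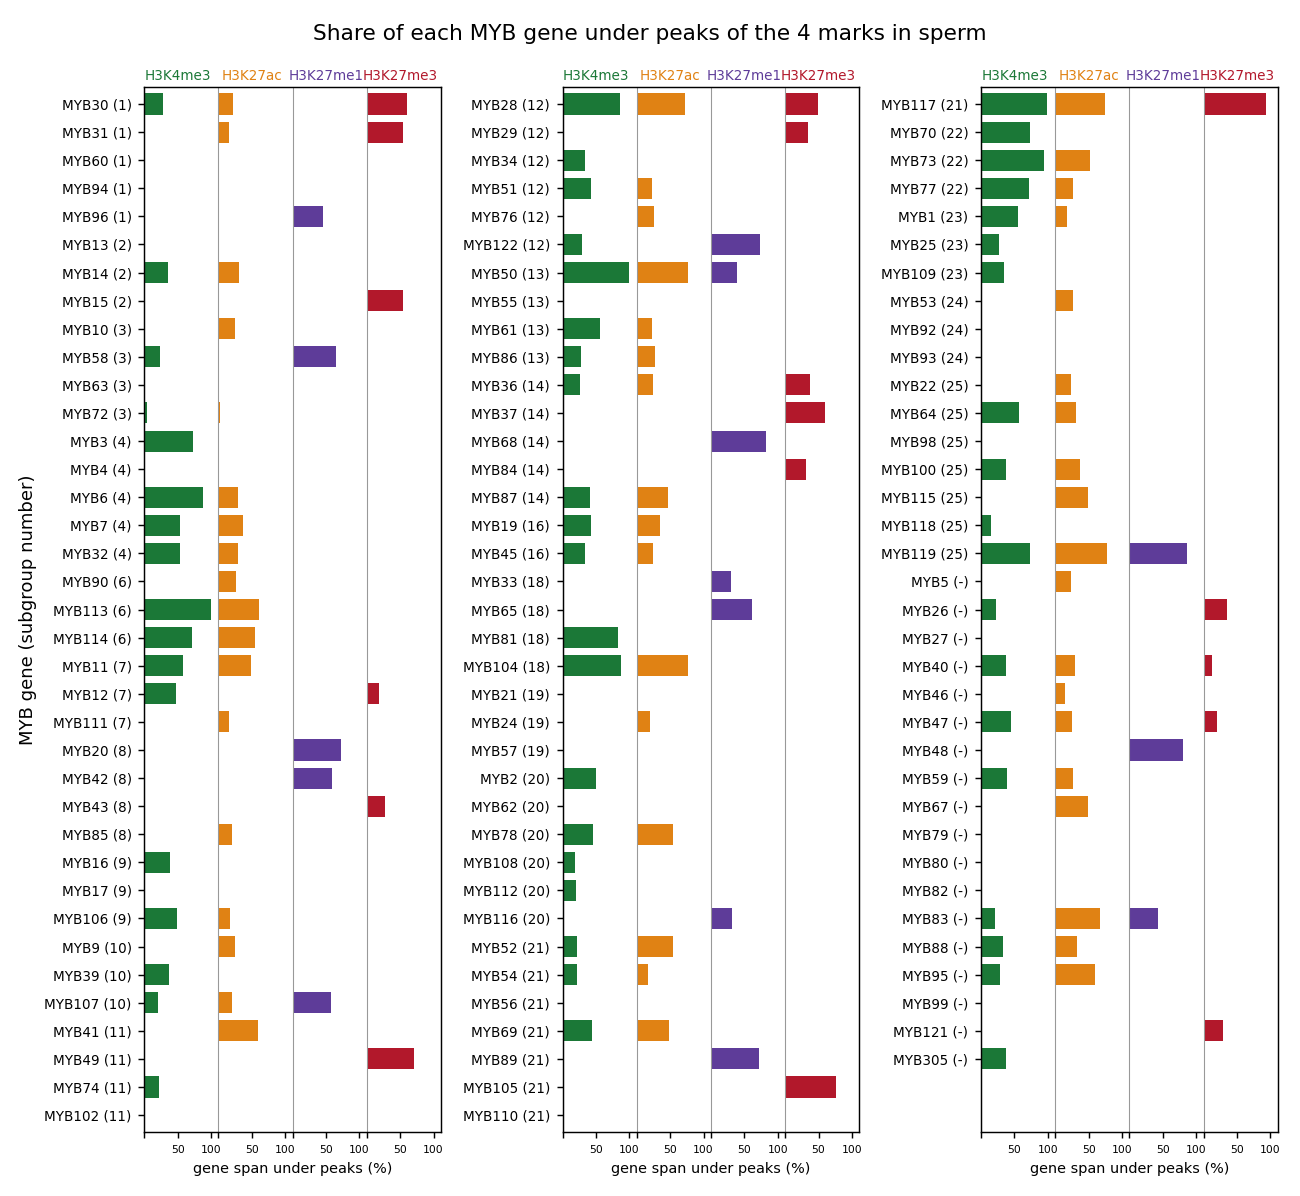
Percent of each gene span under peaks (horizontal axis, 1 strip per mark, narrow lists for H3K4me3 and H3K27ac, broad for H3K27me1 and H3K27me3) for all 109 MYB genes, ordered by subgroup number, with a dash where none was given. H3K4me3 covers whole genes at MYB50 and MYB113, H3K27me3 covers 93.0% of MYB117, and the 22 genes with no mark are empty but for short bars at MYB72.

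H3K4me3 on MYB genes ran from folds of 1.50 to 5.31, with a median of 2.98 over the 55 marked genes. The median over the 20642 marked genes of the genome was 4.09. Of the 55, 29 fell below the lower quartile of all marked genes (3.01) and 1 above the upper quartile (5.14). That gene was MYB70, at 5.31, of subgroup 22. The 2 other members of subgroup 22 came close to it, the stress factor MYB73 at 5.08 and MYB77, an auxin response factor of lateral roots, at 4.81. MYB1 of subgroup 23 had 5.08 and the flavonol activator MYB11 had 5.07. The anthocyanin activators MYB114 and MYB113 had 4.85 and 4.32. MYB88, which limits divisions in the guard cell lineage, had 4.80, and the cuticle and epidermal cell shape factor MYB106 4.48. The lignin factor MYB58 is listed with 4.36, but 339 of the 1829 bp of its peak lay in MYB58, and the summit was outside it, in a peak that also marked AT1G16480. At MYB11 the peaks of both active marks also marked AT3G62615.

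At the other end, MYB83, a master switch of secondary walls, had the lowest H3K4me3 fold at 1.50. MYB118, an endosperm factor that represses seed maturation genes, had 1.63, and MYB74 had 1.64. MYB26, needed for the secondary thickening of the anther wall, had 1.68 and MYB59 had 1.77. These 5 genes had 352 to 648 bp of H3K4me3, within the range of 339 to 1825 bp of all marked MYB genes. In 54 of 55 cases an H3K4me3 summit lay inside the MYB gene, MYB58 being the exception (98.2%, all marked genes 90.8%). Main peaks, those with most bases in the gene, were then taken where their summit was inside. Their summits lay at a median of 542.5 bp from the nearest gene end, against 351 bp in the genome. Strand was not used here, so the starts and ends of genes are not told apart.

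H3K27ac had a narrower range of folds, from 1.32 at MYB83 to 2.23 at MYB11, with a median of 1.61 over 52 MYB genes and 1.80 over all 15345 marked genes. Here 32 of the 52 lay below the lower quartile of all marked genes (1.64) and 2 above the upper quartile (1.98). MYB11 was followed by MYB47 (2.02), MYB40 (1.96), MYB50 (1.95), MYB69 (1.93), MYB114 (1.91), MYB95 (1.89), MYB88 (1.85), MYB7 (1.84), a repressor of phenylpropanoid genes, and MYB104 (1.83). MYB11, MYB114 and MYB88 were thus among the 10 highest for both active marks. The lowest after MYB83 were MYB31 (1.37), MYB87 (1.43), MYB45 (1.43) and MYB6 (1.45). With peaks of −log10 q of at least 5 alone, 28 MYB genes had H3K27ac, against 44.8% of all genes, and 54 had H3K4me3, against 74.7%.

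**Figure D3:**
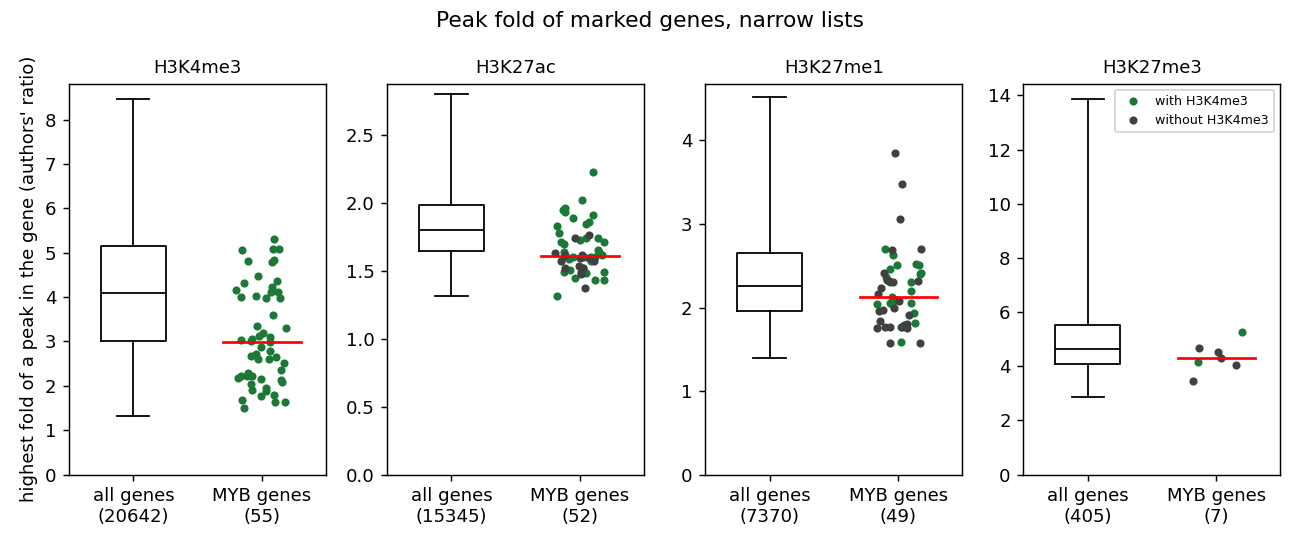
Fold over control from the narrow lists (vertical axis) of each marked MYB gene as a point, per mark with its own axis from 0, beside a box of all marked genes (quartiles, with whiskers from lowest to highest); the red line is the MYB median and point color shows whether the gene has H3K4me3. The MYB median is 2.98 against 4.09 for H3K4me3 and 1.61 against 1.80 for H3K27ac.

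H3K27ac without H3K4me3 was found on 15 MYB genes (13.8%), against 2.38% of all genes. Of all genes with H3K27ac 95.7% had H3K4me3 too, and of MYB genes with H3K27ac 37 of 52 (71.2%). All 15 had no base under a narrow H3K4me3 peak, and 4 of them, MYB5, MYB22, MYB46 and MYB67, were marked in the broad H3K4me3 list. The highest H3K27ac fold among the 15 was 1.76 at MYB10, an iron deficiency factor of the root, in a peak on chromosome 3, 4075198 to 4075635 (TAIR10, as all peak coordinates here). MYB115, a factor of the seed maturation pathway, had 1.74 and MYB5, of seed coat and trichome development, 1.63. MYB9, a suberin and cutin factor of the seed coat, had 1.62. These 4 genes had −log10 q between 5.10 and 8.28, and the other 11 lay under 5. At that stricter limit the state thus held for 4 MYB genes, against 1.09% of all genes. Of these, MYB5 was marked in the broad H3K4me3 list, and its H3K27ac peak also marked the neighbouring gene MAPKKK7.

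The other 11 belonged to many processes. MYB53 (1.61) and MYB41 (1.59) act in suberin synthesis, MYB90 (1.59) in anthocyanin and MYB111 (1.49) in flavonol synthesis, MYB76 (1.57) in aliphatic glucosinolate synthesis and MYB24 (1.53) in the jasmonate response of the stamen. MYB85 (1.52) and MYB46 (1.48) are factors of lignin and secondary walls. MYB22 had 1.57 and MYB67 1.52, and MYB31 at 1.37 also had H3K27me3. The median H3K27ac fold was 1.57 over the 15 and 1.64 over the 37 MYB genes that also had H3K4me3. The same medians over all genes were 1.59 and 1.81.

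H3K27me3 marked 17 MYB genes in the broad list, and 7 of these also had a narrow peak (41.2%, all genes in that list 36.7%). The highest fold was 5.25 at MYB117, on chromosome 1, 9271161 to 9272482, with a −log10 q of 8.03. MYB117 (LOF1) sets organ boundaries, and its close relative MYB105 (LOF2) was next, at 4.66 on chromosome 1, 26157927 to 26158792. MYB15, a cold and defence factor, had 4.51 on chromosome 3, 8309631 to 8310302. MYB84 (RAX3), which acts in axillary meristem formation, had 4.32 on chromosome 3, 18428413 to 18428811. MYB26 had 4.15 on chromosome 3, 4577099 to 4577513, and the lignin factor MYB43 had 4.04 on chromosome 5, 5439610 to 5440200. MYB49 was lowest at 3.46, on chromosome 5, 22016537 to 22016976, with a −log10 q of 2.58. The median of the 7 was 4.32, against 4.64 over the 405 genes marked in that list.

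The other 10 genes lay under broad H3K27me3 peaks alone. Among them were the aliphatic glucosinolate activators MYB28 (1040 bp of the gene) and MYB29 (653 bp), the flavonol activator MYB12 (598 bp) and the Casparian strip factor MYB36 (682 bp). MYB37 (RAX1), of axillary meristem formation, had 1138 bp on chromosome 5, 7696885 to 7698022. MYB30, a regulator of hypersensitive cell death, had 1235 bp and MYB31 1028 bp. MYB121 had 615 bp, MYB47 548 bp and MYB40 231 bp, the fewest of all. In the authors' broad H3K27me3 list, 73.6% of all peaks carry a q value over 0.05. With a −log10 q of at least 5 in that list 1 MYB gene was left, against 0.233% of all genes. The folds in the broad lists did not follow those of the narrow peaks inside them, so a fold or q from a broad list may not describe the peak it stands beside.

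Most of these peaks lay within the MYB genes. The broad H3K27me3 peak was wholly inside the gene for 13 of the 17, a count not made over all genes. A peak middle was inside for 16 of the 17 (94.1%), against 82.7% of all genes with H3K27me3. The MYB117 peak was the only one that also marked another protein-coding gene, AT1G26790. The share of the span covered was 36.5% in the median and ran from 13.1% at MYB40 to 71.3% at MYB49, 75.8% at MYB105 and 93.0% at MYB117. H3K4me3 was on 8 of the 17 (47.1%, all H3K27me3 genes 78.2%) and H3K27ac on 7 (41.2%, all H3K27me3 genes 57%). On 6 of the 8 genes with both H3K27me3 and H3K4me3 the marks shared bases. No base was shared on 11 of the 17, which include all those without H3K4me3. At MYB36 and MYB40 the marks lay on separate stretches of the same gene. At MYB12, MYB28, MYB47 and MYB117, in contrast, every H3K27me3 base of the gene was also under H3K4me3, and at MYB28 all 1040 bp lay under H3K27ac as well. MYB117 carried H3K4me3 over 99.4% of its span and H3K27ac over 1322 bp. The lists cannot tell whether marks on the same bases sat on the same nucleosomes or in different nuclei. Narrow H3K27me1 peaks were on 8 of the 17 and shared bases with H3K27me3 on 7, counts not made over all genes.

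**Figure D4:**
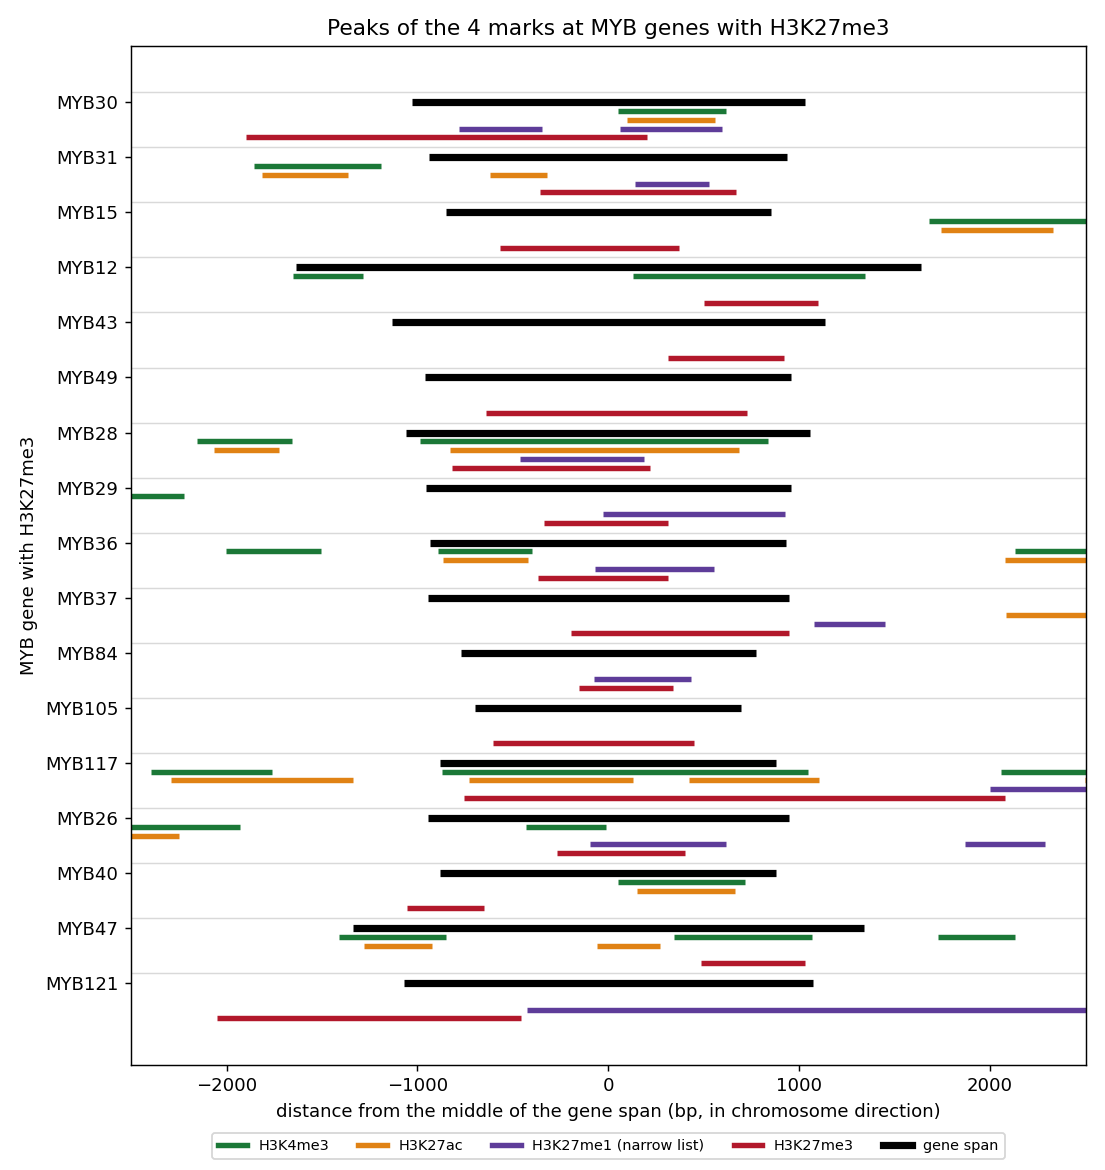
Peaks of the 4 marks around the 17 MYB genes with H3K27me3, as distance in bp from the middle of the gene span in chromosome direction (horizontal axis); black bars are gene spans and the bars under each are H3K4me3, H3K27ac, H3K27me1 from its narrow list, and H3K27me3. H3K27me3 lies wholly inside 13 of the 17 genes and shares bases with H3K4me3 inside 6 of the 8 that have both marks.

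H3K27me1 in the broad list covered most bases at MYB65 (1921 bp), a gibberellin response factor of the anther and target of miR159. Its close relative MYB33 had 862 bp. Next came MYB122, an activator of indolic glucosinolate synthesis (1484 bp), MYB68, a factor of root growth (1473 bp), and MYB119, which acts in cellularization of the female gametophyte (1385 bp). The lignin factors MYB42, MYB20 and MYB58 had 1257, 1047 and 927 bp. MYB107, of the seed coat, had 1250 bp, MYB48 1182 bp and the wax factor MYB96 968 bp. The fewest bases were the 477 bp at MYB89. The peak was wholly inside the gene for 12 of the 15 genes and marked no other protein-coding gene in any case, counts not made over all genes. At MYB20, MYB48 and MYB89 the peak ran past the gene and its middle lay outside. The middle was inside for 80% of the 15 genes, against 65.4% of all genes with H3K27me1.

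The narrow H3K27me1 list held 12 of these 15 genes (80%, all genes in the broad list 70.3%) and 37 others. Its folds on MYB genes ran from 1.58 to 3.85, with a median of 2.12, against 2.26 over all 7370 marked genes. MYB20 had the highest, followed by the lignin factor MYB63 at 3.48. MYB27 is listed with 3.06, in a peak of 2807 bp with 1032 bp in MYB27, its summit outside the gene, that also marked UMAMIT6. The summit of a narrow H3K27me1 peak was outside the gene at MYB6, MYB89 and MYB121 too. Of MYB genes with narrow H3K27me1, 22 of 49 (44.9%) had H3K4me3, and of those without, 33 of 60 (55%). The same shares over all genes were 61.5% and 80.3%.

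None of the 4 marks lay on 22 MYB genes, but 13 of these had a narrow H3K27me1 peak. Those 13 were MYB4, MYB17, MYB27, MYB57, MYB60, MYB62, MYB63, MYB79, MYB80, MYB93, MYB98, MYB102 and MYB110. They include MYB98 of the synergid cell, MYB80 of the tapetum, MYB60 of the guard cell and MYB4, a repressor of phenylpropanoid genes. The other 9, MYB13, MYB21, MYB55, MYB56, MYB72, MYB82, MYB92, MYB94 and MYB99, were marked in none of the 8 lists (8.26%, all genes 10.2%). MYB21 acts in the stamen, MYB99 in the tapetum, MYB82 in trichomes, MYB92 in suberin, MYB94 in wax, MYB56 in the root quiescent centre, and MYB72 in the iron deficiency response of the root. MYB72 was the only MYB gene with some bases of an active mark below the limit of 150 bp, 51 bp of H3K4me3 and 22 bp of H3K27ac. With only peaks of −log10 q of at least 5, 48 MYB genes had no mark, against 23.6% of all genes.

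The genes were also grouped by what they are known to do. These counts stand beside H3K4me3 on 50.5% of all MYB genes and 75.2% of all genes, H3K27ac on 47.7% and 55.9%, broad H3K27me1 on 13.8% and 8.79%, narrow H3K27me1 on 45% and 26.9%, H3K27me3 on 15.6% and 4.03%, and no mark on 20.2% and 19.1%. The groups hold 3 to 11 genes, and no test was made between them or against other genes. Among 11 genes of stamen, anther and pollen development 4 had H3K4me3 and 4 had no mark, of which MYB57 and MYB80 had narrow H3K27me1 peaks. MYB108, of anther dehiscence, had a fold of 3.03, MYB32, needed for normal pollen, 2.88, and MYB81, of pollen mitosis, 2.66. MYB26 was the fourth and the only gene of the group with H3K27me3. The jasmonate response genes MYB21, MYB24 and MYB57 (subgroup 19) had no H3K4me3. Of 3 genes of the female gametophyte, MYB64 had H3K4me3 at 4.12 with H3K27ac, and MYB119 had H3K4me3 at 2.14 with H3K27ac and broad H3K27me1. MYB98 had none of these, but narrow H3K27me1 peaks covered 1192 bp of MYB98 (fold 2.41) and 575 bp of MYB119 (1.93). Of 5 genes of the seed and seed coat, 4 had H3K27ac and 2 had H3K4me3.

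Axillary meristem and organ boundary genes were the group in which H3K27me3 was on all members, MYB37, MYB84, MYB105 and MYB117. Narrow peaks were on 3 of the 4. RAX2 (MYB38), also of axillary meristem formation, carries its MYB number only as a synonym and was not counted, and it had no H3K27me3. H3K27me3 was on 2 of 6 glucosinolate activators, 2 of 7 genes of stress and hormone response, and 1 each of 11 stamen, 6 flavonoid, 8 secondary wall and 7 suberin genes. The 5 seed, 3 female gametophyte, 4 phenylpropanoid repressor and 7 cuticle, wax and guard cell genes had none.

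Regulators of metabolism and the remaining groups followed. Among 6 activators of flavonol and anthocyanin synthesis, H3K4me3 was on 4 with a median fold of 4.58, H3K27ac on 5, and H3K27me1 on none in either list. Among 4 phenylpropanoid repressors H3K4me3 was on 3 (median 3.12), with MYB4 as the exception. Of 6 glucosinolate activators, 4 had H3K4me3 (median 3.05) and 5 had narrow H3K27me1, of which MYB34 was free. Among 8 genes of secondary walls and lignin, H3K4me3 was on 2 and broad H3K27me1 on 4. Those 2 were MYB83, at the lowest fold of the family, and MYB58, at the edge of the peak shared with AT1G16480. Of 7 suberin and Casparian strip genes, 3 had H3K4me3 (median 1.95) and 5 had H3K27ac. Of 7 genes of cuticle, wax and guard cells, 4 had H3K4me3 (median 3.89), and of 7 genes of stress and hormone response 5 did (median 3.61).

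**Figure D5:**
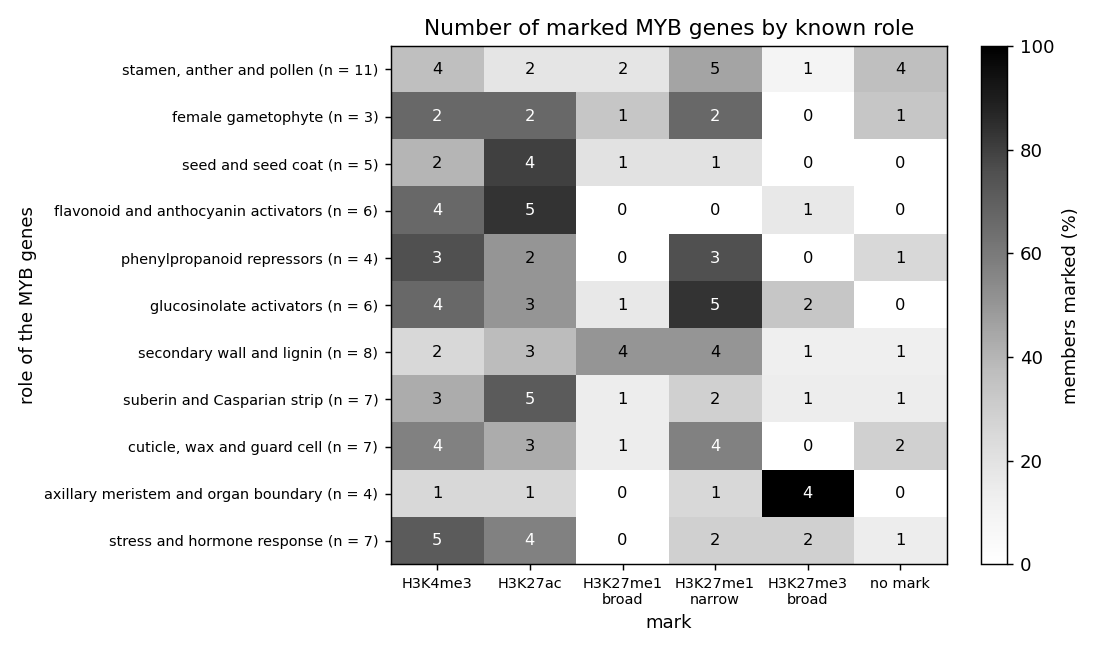
Number of genes with each mark (printed in the cells; columns are marks and lists) in 11 groups of MYB genes by known role (rows, n = group size), shaded by percent of the group. All 4 axillary meristem and organ boundary genes with a MYB symbol have H3K27me3, and 5 of the 6 glucosinolate activators have narrow H3K27me1.

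By subgroup number, the 3 genes of subgroup 22 all had H3K4me3 (median fold 5.08) and no H3K27 methylation in any list, and the same held for the 3 genes of subgroup 23 (median 4.12). Subgroup 8, of lignin genes, and subgroups 19 and 24 had no H3K4me3 in 4, 3 and 3 genes. In subgroup 14, 3 of 5 genes had H3K27me3 (MYB36, MYB37 and MYB84), and in subgroup 21, 2 of 8 (MYB105 and MYB117). Subgroup 25, with the gametophyte and seed factors, had H3K27ac on 5 of 7 genes and H3K27me3 on none. By chromosome, H3K4me3 was on 14 of 25 MYB genes of chromosome 1, where 75.7% of all genes had it, and on 10 of 10 on chromosome 2 (all genes 71%). It was on 13 of 27 on chromosome 3 (76.3%), 7 of 15 on chromosome 4 (75.1%) and 11 of 32 on chromosome 5 (76.7%). Chromosome 5 also held 8 of the 15 MYB genes with H3K27ac and no H3K4me3, a state of 2.61% of all its genes.

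Neighbouring MYB genes could differ. The anthocyanin genes MYB113, MYB114 and MYB90 follow each other on chromosome 1, and MYB113 and MYB114 had both active marks while MYB90 had H3K27ac alone. These are similar copies, and how reads that fit several copies were placed is not given in the sources used here. MYB29 and MYB76 are adjacent on chromosome 5, where MYB29 had H3K27me3 and MYB76 had H3K27ac. MYB104 and MYB81 both had H3K4me3, MYB24 and MYB115 both had H3K27ac alone, and of MYB118 and MYB21 the first had H3K4me3 and the second no mark. No peak marked 2 MYB genes at once. The 206 protein-coding genes next to a MYB gene had H3K4me3 in 78.2% of cases, H3K27ac in 58.3%, H3K27me1 in 9.71% and H3K27me3 in 5.83%, all nearer to the shares of the genome than to those of the MYB genes.

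Other large families of plant transcription factors, taken by symbol in the same way, gave other shares. H3K4me3 was on 73.4% of 79 NAC genes and 76.1% of 67 WRKY genes, against 50.5% of MYB genes. H3K27me3 was on 10.1% of NAC and 13.4% of WRKY genes, and broad H3K27me1 on 12.7% and 14.9%, so for these marks the MYB shares of 15.6% and 13.8% had close neighbours. H3K27ac without H3K4me3 was on 10.1% of NAC and 5.97% of WRKY genes, against 13.8% of MYB genes. None of the 4 marks was found on 8.86% of NAC and 10.4% of WRKY genes, against 20.2% of MYB genes and 19.1% of all genes. This contrast depends on the lists used, as 13 of the 22 such MYB genes had narrow H3K27me1. The share marked in none of the 8 lists, 8.26% for MYB genes, was not computed for NAC and WRKY.

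Among 27 genes that act with or under MYB factors, 26 had H3K4me3 (all genes 75.2%), 14 had H3K27ac (55.9%), 8 had H3K27me1 (8.79%) and 5 had H3K27me3 (4.03%). All 8 partners had H3K4me3, among them the WD40 protein TTG1 (fold 5.32). The bHLH factors GL3, EGL3, TT8 and MYC2 had H3K4me3 folds of 3.24, 3.54, 2.50 and 3.17. H3K27ac was on 2 of the 8, EGL3 and TT8. MYC1 was the only partner with H3K27me3 (581 bp). Of 8 enzymes of flavonoid synthesis 7 had H3K4me3, from 2.09 at F3H to 4.74 at TT5, and LDOX had no mark in the 4 lists. All 8 enzymes of glucosinolate synthesis had H3K4me3 and 7 had H3K27ac. H3K27me3 was on 4 of these 8, CYP79B2, CYP79B3 (narrow fold 5.41), CYP83A1 and MAM3 (3.55). The list was chosen with earlier results known, and none of these counts was tested. The 3 cellulose synthases of secondary walls, CESA4, CESA7 and CESA8, had H3K4me3 folds of 3.85, 2.36 and 2.87, and no H3K27me3.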

How the data were processed

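Peak lists of H3K4me3, H3K27ac, H3K27me1 and H3K27me3 from sperm nuclei were used, a narrow and a broad list per mark, each made by the authors from all replicates of its mark. The submitters' processing notes list MACS2 2.1.0, Bowtie2 2.1.0, deepTools 2.5.0.1, Trim Galore 0.4.1, bedtools, Picard and SAMtools 1.3, with build TAIR10. Settings were not given in the sources used here. In each deposited list the authors give coordinates, a fold (the ratio of immunoprecipitation to control) and −log10 of the p-value and q-value per peak. Fold and q were taken from the narrow lists, except where a limit on −log10 q was put on a broad list.

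Genes came from a RefSeq table of assembly TAIR10.1 without strand, and their coordinates are not given. At an offset of 0 bp, 89.67% of H3K4me3 summits lay in genes, and fewer at every other offset tried. Bases of each gene span under merged peaks were counted with Python 3.11.15, numpy 2.4.6 and pandas 2.3.3, rho was computed with scipy 1.17.1, and plots were drawn with matplotlib 3.10.9. The overlap code was checked on simulated data. Subgroups, role groups and the lists of partners, flavonoid and glucosinolate enzymes and cellulose synthases came from general knowledge of the family; subgroup was left blank for 18 genes.

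Genes named were all with H3K27me3, the 10 highest and 5 lowest folds of H3K4me3 and H3K27ac, up to 10 with most H3K27me1, those with no mark, those of described groups, and genes of the lists. Others named (among them all genes with H3K27ac and no H3K4me3, and adjacent genes) were chosen after their values were seen. The members and lists were chosen with earlier results of these data known. No test of a list was run. Alternatives were the other list, −log10 q of at least 5, overlaps of 1 or 300 bp, 500 bp added on each side, genes found by synonym, and genes of 1000 to 2500 bp.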

Additional observations from a re-analysis of the deposited data

How the results depend on the processing

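Counts of MYB genes with H3K4me3 (55; 40 to 59 under the alternatives) and both median folds (2.98 to 2.99 and 1.61 to 1.74) stayed within 1.5 times their reported values under every alternative tried, as did 40 of 48 values in all. The 8 that moved came from the peak list or the limit on q. With −log10 q of at least 5, H3K27ac fell from 52 to 28 genes, H3K27ac without H3K4me3 from 15 to 4, H3K27me1 from 15 to 4 and H3K27me3 from 17 to 1, and genes with no mark went from 22 to 48. For H3K27me1 and H3K27me3 this limit used q from the broad lists, which may not describe the peak it stands beside. With the other list, H3K27ac was on 1 gene, H3K27me1 on 49 and H3K27me3 on 7. The range of gene lengths and all alternatives for H3K27ac without H3K4me3 and for no mark were chosen after seeing the data. No paired analysis was possible because the peak lists hold no value per replicate and the results come from no test. For the same reason no replicate could be left out. A gene without a called peak may still carry the mark below the calling threshold, and the depth behind each list is unknown.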

Other observations

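A further 9 genes carry a MYB number only as a synonym and were not counted above. H3K4me3 with H3K27ac lay on 4 of them: MYBR1 (MYB44, subgroup 22), with an H3K4me3 fold of 4.89, HOS10 (MYB8) with 4.38, the anthocyanin activator PAP1 (MYB75) with 2.38 and AtMYB103, of secondary walls, with 1.87. The fold of MYBR1 lay between those of the other members of subgroup 22. LAF1 (MYB18), of the far-red light response, had H3K27me1 over 598 bp. FLP (MYB124), the relative of MYB88 in the guard cell lineage, and the tapetum factor TDF1 (MYB35) were marked in none of the 8 lists, whereas MYB88 had both active marks. RAX2 (MYB38), of axillary meristem formation like MYB37 and MYB84, had no H3K27me3 and had narrow H3K27me1 over 660 bp. TT2 (MYB123), the activator of proanthocyanidin synthesis in the seed coat, had narrow H3K27me1 over 992 bp and no other mark.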
